A study of Mus musculus with 4 samples.

Results

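RNA levels in the cortex were described for 8 genes linked to stress hormones and other stresses. The 8 were the glucocorticoid receptor Nr3c1, the mineralocorticoid receptor Nr3c2, and the stress-responsive genes Fkbp5, Sgk1, Tsc22d3, Cdkn1a, Ddit4 and Errfi1. They were taken by name from 22919 features, each the summed counts of the transcripts with 1 gene symbol, or 1 transcript where the deposited table gives no symbol. The deposited symbols are mostly in capitals, so 0 rows carried a member's name in its usual mouse spelling and 24 transcript rows carried it when letter case was ignored. These were the same rows that GENCODE M21 assigns to the genes by identifier, for 8 of 8 genes. All 8 passed the minimum of 10 counts, with between 152 and 7831 counts in a library.

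RNA was from the cortex of 2 APP/PS1 transgenic mice (APP) and 2 wild type mice (WT), all C57BL/6 in background by the labels, male and 12 months old. The transgenic mice came from a line that originated at The Jackson Laboratory, and by the study's methods the WT controls were C57BL/6J mice. The transgenic mice carry the APPswe and PS1ΔE9 transgenes, which model the amyloid deposition of AD and are driven by the promoter of the prion protein gene Prnp. All mice were kept singly in their cages under SPF conditions, and the labels name no treatment. By the study's methods they received sodium pentobarbital as an anaesthetic and were then killed by cervical dislocation. The libraries are named APP-3, APP-4, WT-1 and WT-2, and nothing says whether the mice of a group were littermates or were killed at the same hour.

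Corticosterone, the main glucocorticoid of mice, crosses into the brain and binds both receptors, which rest in the cytoplasm in a complex with chaperones. The mineralocorticoid receptor binds the hormone more tightly, while the glucocorticoid receptor is occupied mostly at the daily peak and under stress. Bound receptors move to the nucleus and act on genes such as Fkbp5, Tsc22d3 and Sgk1 through glucocorticoid response elements (GREs), and many of their targets are also driven by other stresses.

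A full GRE, here the arms GNACA and TGTNC with any 3 bases between them, was looked for on both strands of the RefSeq promoter windows (GRCm38.p6), which run from 250 bases before to 50 bases after a start. The single arm AGAACA and the cyclic AMP response element (CRE) TGACGTCA were also searched. The promoter table held 16 windows for 7 of the 8 genes, and Nr3c1 was not among them. A full GRE was found in 1 of the 16, against 0.475% of all 32851 windows, a CRE in 1 of 16 against 1.79%, and the single arm in 4 of 16 against 19.0%. The windows with the first 2 motifs are shown up to the start, because they are the ones in which a complete element was found, with all matches in capitals. The first, at chr10:21993640-21993889 on the plus strand, lies before an upstream start of Sgk1. In it the full GRE at chr10:21993702-21993714 overlaps a single-arm match at each end, and a further arm, read on the minus strand, stands alone. The second, at chr4:150854820-150855069 on the plus strand, lies before the second start of Errfi1.
Sgk1: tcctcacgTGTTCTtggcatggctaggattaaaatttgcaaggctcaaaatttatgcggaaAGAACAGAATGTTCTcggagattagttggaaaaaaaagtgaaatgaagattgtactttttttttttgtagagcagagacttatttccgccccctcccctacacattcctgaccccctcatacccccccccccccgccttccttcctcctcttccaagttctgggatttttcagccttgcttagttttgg
Errfi1: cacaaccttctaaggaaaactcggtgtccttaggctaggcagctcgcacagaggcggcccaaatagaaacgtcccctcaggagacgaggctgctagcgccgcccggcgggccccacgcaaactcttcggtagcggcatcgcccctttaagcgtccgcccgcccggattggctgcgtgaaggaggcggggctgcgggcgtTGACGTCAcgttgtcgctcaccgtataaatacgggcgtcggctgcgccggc

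The full GRE of Sgk1 starts 188 bases before that RefSeq start and 964 bases before the start of Sgk1-201, the transcript that held most of the gene's counts here. The window at the start of Sgk1-201 itself held none of the 3 motifs. The CRE of Errfi1 starts 54 bases before the start of its main transcript, Errfi1-201. The single arms outside the Sgk1 window above were in 2 other windows of Sgk1 and in 1 of Tsc22d3. The windows of Nr3c2, Fkbp5, Cdkn1a and Ddit4 held none of these letters, which says nothing of elements outside them. A match of letters is a description and was not tested as a binding site.

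The libraries held between 28525117 and 43881196 counts. CPM below are counts per 1000000 counts of the TMM-scaled library. App, which the transgene adds to, stood at 2686 and 2388 CPM in the APP libraries against 856 and 905 CPM in the WT ones. The cortical excitatory neuron marker Slc17a7 was lower in both APP libraries, at 323 and 313 CPM against 382 and 392 CPM in WT. Its log2 fold change was -0.28, with an adjusted p of 0.0783 (edgeR's quasi-likelihood test). Over all features, 225 passed the study's cut-offs, a 1.5-fold change and an FDR under 0.05 (quasi-likelihood test of edgeR, Benjamini-Hochberg adjusted), which is 0.982%, with 0.908% higher and 0.0742% lower in APP. The median log2 fold change over all features was 0.0038. With 2 libraries per group, an exact permutation test of 1 gene cannot give a two-sided p below 0.333, so p-values rest on the spread shared between genes, and they measure the spread between these 4 libraries.

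Levels differed widely among the 8 genes when scaled by transcript length. In CPM per kilobase of transcript, the mean over the 4 libraries was 47.8 ± 6.04 (SD, n = 4) for Tsc22d3, 42.3 ± 4.45 for Sgk1 and 33.2 ± 1.57 for Nr3c1. Nr3c2 stood at 13.8 ± 0.162, Errfi1 at 10.9 ± 0.943, Fkbp5 at 7.41 ± 1.02, Ddit4 at 7.28 ± 0.825 and Cdkn1a at 3.25 ± 0.730. The neighbours Tsc22d3 and Sgk1, and likewise Fkbp5 and Ddit4, overlapped over the libraries, whereas Nr3c1, Nr3c2 and Errfi1 were separate from the genes next to them in this order. The lowest Nr3c1 library, at 31.3, was above the highest Nr3c2 library, at 14.0, so the glucocorticoid receptor transcript was the more abundant of the 2 receptors in every library.

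**Figure D1:**
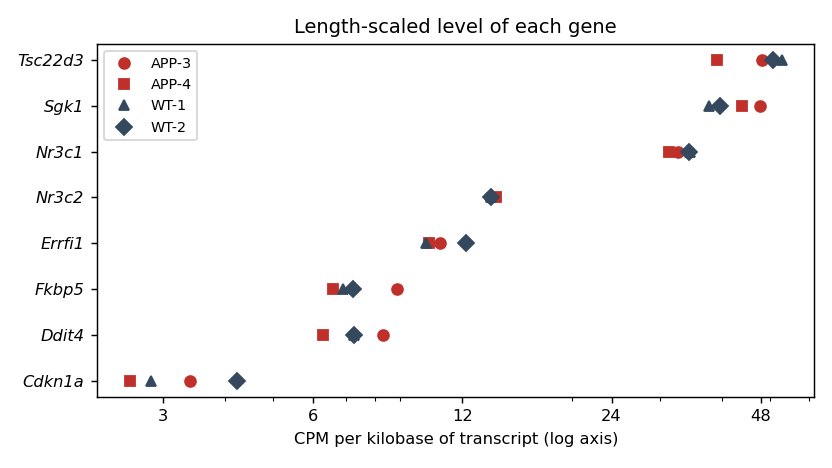
Length-scaled level of each of the 8 genes (rows) in CPM per kilobase of transcript, on a log axis, with 1 point for each library (red for APP, dark blue for WT). Tsc22d3, Sgk1 and Nr3c1 lie highest, between 31.3 and 52.9, and Cdkn1a lowest, between 2.56 and 4.21.

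None of the 8 genes changed between APP and WT at the cut-offs: 0 of 8 had an FDR under 0.05, against 1.32% of all features (1.13% higher and 0.192% lower), and 0 of 8 were called by DESeq2, edgeR's exact test or its likelihood ratio test. At an unadjusted p under 0.05, 2 of 8 passed (Sgk1 and Tsc22d3), where 11.1% of all features did. The libraries of the groups did not overlap for 3 of 8 (Nr3c1, Sgk1 and Tsc22d3), against 41.1% of all features. Sgk1 was the 1 that lay higher in APP, where 21.1% of features did, and 2 lay lower, where 20.0% did. A p that misses the threshold does not show equal levels, and the intervals of the fold changes are given with each gene. In bulk cortex, fewer cells of a type and less RNA per cell cannot be told apart.

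**Figure D2:**
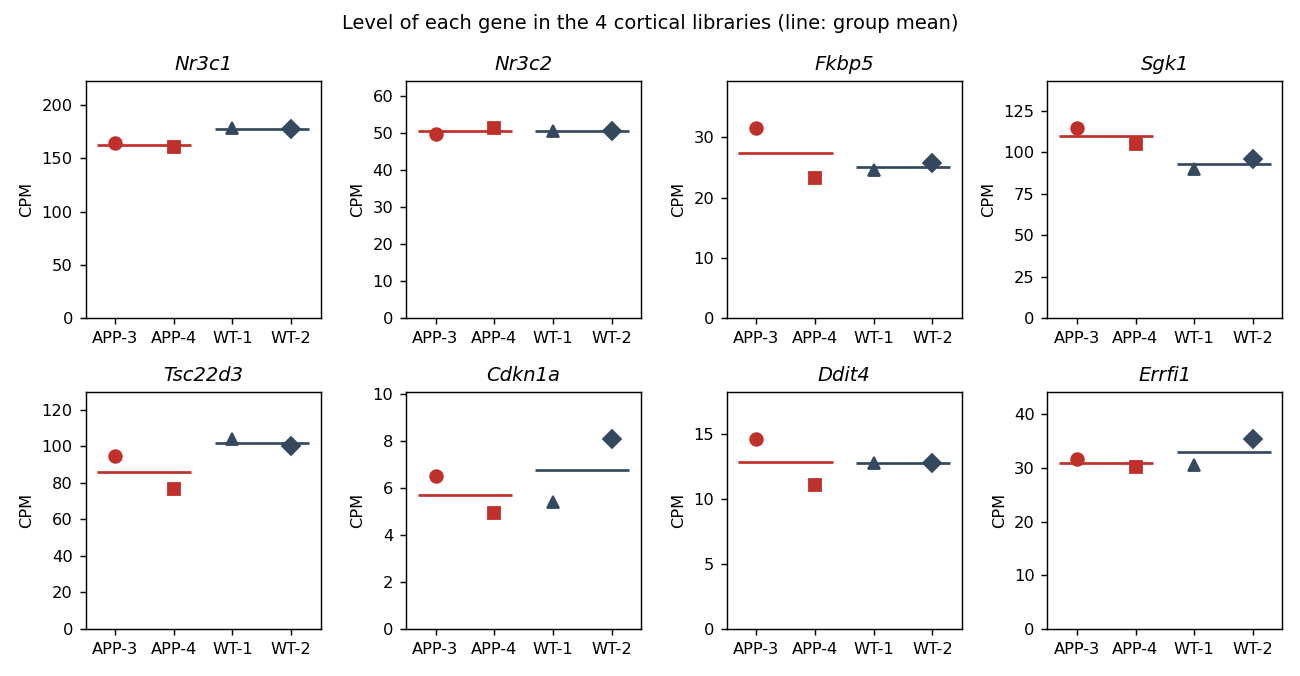
Level of each gene in CPM (vertical axes, each from 0) in the libraries APP-3, APP-4, WT-1 and WT-2, with horizontal lines at the group means. Sgk1 lay higher in both APP libraries, Nr3c1 and Tsc22d3 lay lower in both, and APP-3 stood above APP-4 for Fkbp5 and Ddit4 while the WT libraries were close.

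Nr3c1 (chromosome 18), the glucocorticoid receptor, was at 164 CPM in APP-3 and 161 CPM in APP-4, against 178 CPM in WT-1 and 177 CPM in WT-2. Both APP libraries were below both WT libraries, and within each group the values were close. The log2 fold change was -0.13 (SE 0.064, 95% interval -0.27 to 0.014), with an adjusted p of 0.507 (edgeR's quasi-likelihood test), and lower in 2 of 2 APP libraries. In linear terms the interval runs from 0.828 to 1.01 times the WT level. Its counts came mainly from Nr3c1-201, with 73.9%, and Nr3c1-203, with 25.3%, whose log2 fold changes were -0.14 and -0.10.

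Nr3c2 (chr8:76899442-77245012, plus strand, GRCm38), the mineralocorticoid receptor, is known for its high level in the hippocampus and is also expressed in cortical neurons. It was at 49.7 CPM in APP-3, 51.3 CPM in APP-4, 50.6 CPM in WT-1 and 50.5 CPM in WT-2. The APP libraries enclosed the WT libraries, and the log2 fold change was -0.0024 (SE 0.069, 95% interval -0.16 to 0.15). In linear terms the interval runs from 0.898 to 1.11 times the WT level. Nr3c2-201, Nr3c2-203 and Nr3c2-202 held 47.4%, 28.9% and 22.6% of its counts. An RNA read from the opposite strand, Gm10649, overlaps the gene and had between 88 and 122 counts in a library, and the library kit kept the strand.

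Fkbp5 (chr17:28399094-28517527, minus strand) encodes a co-chaperone that lowers the affinity of the glucocorticoid receptor for its hormone and is itself induced by the receptor, which closes a feedback loop. It was at 31.5 CPM in APP-3, 23.3 CPM in APP-4, 24.5 CPM in WT-1 and 25.7 CPM in WT-2. APP-3 alone was high, and APP-4 was below both WT libraries. The log2 fold change between the groups was 0.13 (SE 0.12, 95% interval -0.15 to 0.40, adjusted p 0.799 by edgeR). Without APP-4 it was 0.33 with an adjusted p of 0.0156, and without APP-3 it was -0.11 with an adjusted p of 0.625, so its direction depended on which APP library was kept. In such fits the spread within a group comes from the WT pair alone.

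Sgk1 (chr10:21882184-21999903, plus strand) encodes a kinase that is induced by corticosteroids and acts on ion channels and FOXO factors, and in the brain it is prominent in oligodendrocytes. It was at 114 CPM in APP-3 and 105 CPM in APP-4, against 90.2 CPM in WT-1 and 95.7 CPM in WT-2. Both APP libraries were above both WT libraries, by a step about as large as the gap between the APP libraries. The log2 fold change was 0.24 (SE 0.072, 95% interval 0.079 to 0.40), with an adjusted p of 0.199 (edgeR), and higher in 2 of 2 APP libraries. The change did not pass the threshold over all features, and its interval of 1.06 to 1.32 times the WT level ends below 1.5-fold. Without APP-4 the log2 fold change was 0.30 with an adjusted p of 0.000352, and without APP-3 it was 0.17 with an adjusted p of 0.0795. Without WT-1 it was 0.19 and without WT-2 0.28, with adjusted p-values of 0.930 and 0.621. Sgk1-201 held 94.6% of the counts and had a log2 fold change of 0.24.

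Tsc22d3 (chrX:140539528-140600659, minus strand), also called GILZ, encodes a leucine zipper protein that is induced by glucocorticoids and restrains inflammatory transcription factors. It was at 94.7 CPM in APP-3 and 76.7 CPM in APP-4, against 104 CPM in WT-1 and 100.2 CPM in WT-2. Both APP libraries were lower, APP-4 by much more than APP-3. The log2 fold change was -0.25 (SE 0.094, 95% interval -0.46 to -0.043), with an adjusted p of 0.320 (edgeR). It was -0.42 with an adjusted p of 2.92e-07 without APP-3, and -0.11 with an adjusted p of 0.438 without APP-4. Without WT-1 and without WT-2 it was -0.23 and -0.28, with adjusted p-values of 0.852 and 0.705. The receptor targets Sgk1 and Tsc22d3 lay on opposite sides of WT, and with the 4 libraries neither had an FDR under 0.05. Of all features, 21.1% lay higher and 20.0% lower in both APP libraries. Tsc22d3-201 held 96.7% of the counts.

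Cdkn1a (chr17:29090976-29100727, plus strand) encodes the cell cycle inhibitor p21, a target of p53 as well as of glucocorticoids, and had the fewest counts. It was at 6.50 CPM in APP-3, 4.91 CPM in APP-4, 5.41 CPM in WT-1 and 8.06 CPM in WT-2. The highest and the next to lowest libraries were both WT, and the groups overlapped. The log2 fold change was -0.24 (SE 0.21, 95% interval -0.71 to 0.24, adjusted p 0.769 by edgeR), the widest interval of the 8 genes and the only one that reached past 1.5-fold.

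Ddit4 (chr10:59949669-59951834, minus strand), also called REDD1, encodes an inhibitor of mTORC1 that glucocorticoids, hypoxia and energy stress induce. It was at 14.6 CPM in APP-3, 11.0 CPM in APP-4, 12.7 CPM in WT-1 and 12.8 CPM in WT-2. The APP libraries lay on either side of 2 nearly equal WT libraries, so the group means were alike, with a log2 fold change of 0.0045 (SE 0.14, 95% interval -0.30 to 0.31).

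Errfi1 (chr4:150853919-150868892, plus strand), also called MIG6, encodes a feedback inhibitor of EGF receptor family kinases. It was at 31.6 CPM in APP-3, 30.1 CPM in APP-4, 30.5 CPM in WT-1 and 35.3 CPM in WT-2. WT-2 was high and the other libraries were close together. The log2 fold change was -0.092 (SE 0.090, 95% interval -0.29 to 0.11, adjusted p 0.795 by edgeR).

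**Figure D3:**
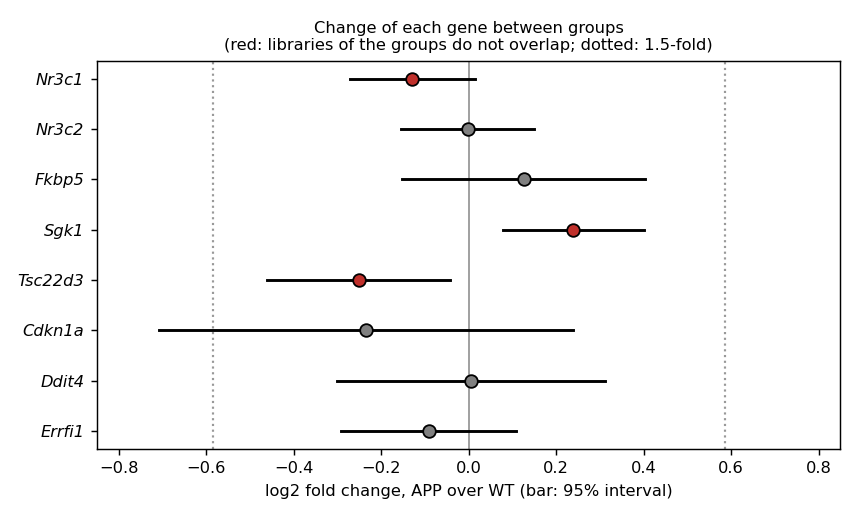
Log2 fold change of each gene between APP and WT (point) with its 95% interval from edgeR's quasi-likelihood fit (bar), red where the libraries of the groups do not overlap and grey where they do, with dotted lines at 1.5-fold. The intervals of Sgk1 (0.079 to 0.40) and Tsc22d3 (-0.46 to -0.043) lie on opposite sides of 0, and of the 8 only that of Cdkn1a crosses a dotted line.

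Of the 24 transcripts of these genes, 0 passed an FDR under 0.05 and 2, Sgk1-201 and Tsc22d3-201, had an unadjusted p under 0.05. Of all 37539 transcripts, 1.06% and 9.18% did. Fkbp5, Cdkn1a and Ddit4 had 1 counted transcript each, and Errfi1-201 held 99.2% of the counts of its gene.

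The spread between the APP libraries was itself uneven over the 8 genes. The CPM ratio of APP-3 to APP-4 was 1.35 for Fkbp5 (exact 95% interval 1.22 to 1.49), 1.32 for Ddit4 (1.14 to 1.53), 1.32 for Cdkn1a (1.06 to 1.65) and 1.24 for Tsc22d3 (1.17 to 1.31). These intervals cover counting error only. The ratio was 1.09 for Sgk1 (1.04 to 1.14), and the intervals spanned 1 for Errfi1 (0.955 to 1.15) and for the receptors Nr3c1 (0.980 to 1.06) and Nr3c2 (0.902 to 1.04). Thus 4 of 8 genes were past 1.2-fold higher in APP-3 and 0 of 8 past it in the other direction, where 10.7% and 14.1% of the 16524 features of at least 1 CPM were. Between the WT libraries the ratio of WT-1 to WT-2 was 0.671 for Cdkn1a (0.562 to 0.799), 0.863 for Errfi1 (0.799 to 0.933) and 0.942 for Sgk1 (0.899 to 0.986), and the intervals of the other 5 spanned 1.

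A list of other genes that glucocorticoids induce also stood higher in APP-3 for most genes, a comparison chosen after the data had been seen. Of its 34 counted genes outside the 8, 27 were higher in APP-3 than in APP-4. Of the 34, 15 were past 1.2-fold, or 44.1%, and 1 was past it the other way. Of the features of at least 1 CPM, 50.2% were higher in APP-3, with 10.7% past 1.2-fold and 14.1% past it the other way. The median log2 difference was 0.16 over the list and 0.0011 over the features of at least 1 CPM. In WT, 13 of 34 were higher in WT-1, with 1 past 1.2-fold and 4 past it in WT-2 (8.44% and 6.58% of the features of at least 1 CPM), and the median was -0.050.

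The 3 genes with the largest differences, named after their values were seen, were Plin4, Hif3a and Zbtb16. Plin4, a coat protein of lipid droplets, was at 28.3 CPM in APP-3, 14.0 CPM in APP-4, 15.7 CPM in WT-1 and 20.2 CPM in WT-2. Hif3a, a regulator of the hypoxia response, was at 5.67, 2.81, 3.82 and 3.92 CPM in the same order. Zbtb16, a transcription factor strongly induced by glucocorticoids in many tissues, was at 60.4, 36.0, 49.1 and 55.4 CPM. Klf9, a transcription factor that glucocorticoids induce in neurons and that was also chosen after its values were seen, was at 175 CPM in APP-3, 113 CPM in APP-4, 164 CPM in WT-1 and 169 CPM in WT-2. For each of these 4 genes the WT libraries were between the APP libraries. APP-3 stood farther from them for Plin4 and Hif3a, and APP-4 for Zbtb16 and Klf9. Not all listed genes past 1.2-fold had this order. Sult1a1, next in size of difference after Zbtb16, was at 9.05, 5.49, 6.52 and 9.16 CPM, with WT-2 above APP-3. For Mfsd2a both WT libraries were above both APP libraries, and for Mt2 both were below. Per1, a clock gene that is also a receptor target, was the 1 gene past 1.2-fold higher in APP-4, at 46.7 CPM against 37.6 CPM. The hour of dissection is not among the labels, and its part in these differences was not tested.

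**Figure D4:**
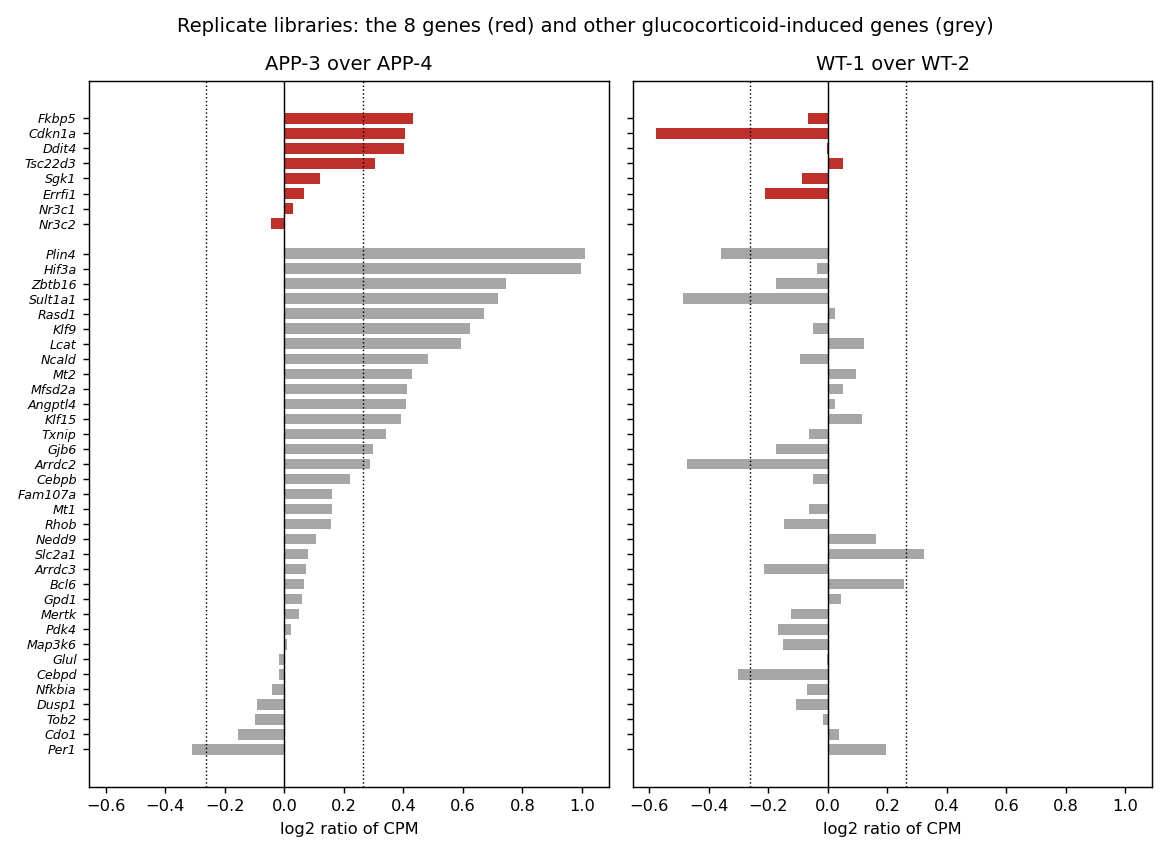
Log2 ratio of CPM between the libraries of a group, APP-3 over APP-4 on the left and WT-1 over WT-2 on the right, for the 8 genes (red bars) and 34 other glucocorticoid-induced genes (grey bars), with dotted lines at 1.2-fold. On the left 27 of 34 grey bars and 7 of 8 red bars point towards APP-3, and on the right 13 of 34 and 3 of 8 point towards WT-1.

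Between APP and WT, 17 of the 34 genes had a log2 fold change above 0. Of the 34, 2 rose and 1 fell at an FDR under 0.05 (edgeR's quasi-likelihood test), where 1.13% and 0.192% of all features did. An unadjusted p under 0.05 was reached by 11 of 34, against 11.1% of all features, and the median log2 fold change was 0.0044. Cebpd, a transcription factor of the acute phase response, rose by 0.97 on the log2 scale (adjusted p 0.0429). Pdk4, a kinase that restrains pyruvate oxidation, rose by 0.61 (adjusted p 0.0395). Dusp1, a phosphatase of MAP kinases that is also an immediate-early gene, fell by 0.59 on the log2 scale (adjusted p 0.0326). Cebpd was not called by DESeq2, with an adjusted p of 0.0715, and all 3 calls were lost without WT-1, where the adjusted p-values were 0.299, 0.363 and 0.109. They were also lost without WT-2, at 0.0501, 0.0849 and 0.269, and those of Cebpd and Pdk4 with sums per GENCODE gene, at 0.0592 and 0.0533.

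Of 16 chaperones, immunophilins and coregulators of the receptors, 0 passed an FDR under 0.05 and 0 had an unadjusted p under 0.05 by edgeR. The shares of all features were 1.32% and 11.1%. The libraries of the groups did not overlap for 1 that was higher and 4 that were lower in APP. Of all features, 21.1% and 20.0% did so, and the median log2 fold change of the list was -0.0091. The most abundant were the chaperones Hspa8, at a log2 fold change of -0.080, and Hsp90aa1, at -0.070. The list was described by its values and was not tested as a set.

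Of 16 close relatives of the 8 genes, a list that counts the receptors Nr3c1 and Nr3c2 themselves, 0 passed an FDR under 0.05. An unadjusted p under 0.05 was reached by 3 of 16, and the median was -0.048. Of all features, 1.32% and 11.1% passed these thresholds. Tsc22d1, a relative of Tsc22d3 and the most abundant of them, had a log2 fold change of -0.12.

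Among genes of steroid metabolism and the HPA axis, the hormonal chain from hypothalamus to adrenal, 13 of 16 were counted. An unadjusted p under 0.05 was reached by 3 of 13, against 11.1% of all features. At an FDR under 0.05, 2 rose, Avp and Oxt, where 1.13% of all features did. Both are peptide hormones made in the hypothalamus. The counts of Avp were 18 and 102 in the APP libraries against 2 and 0 in WT (adjusted p 0.0204), so it was at least 25.6-fold higher in APP against a limit of 3 counts in each WT library. That bound was 8.15-fold without APP-4 and 43.1-fold without APP-3. Oxt had 12, 22, 0 and 1 counts (adjusted p 0.0326), at least 7.37-fold higher, and its call was lost with sums per GENCODE gene (adjusted p 0.0534) and without WT-1 (adjusted p 0.104). DESeq2 gave Oxt no adjusted p, and neither Avp nor Oxt was tested where at least 10 counts were required in every library. Of a list of 14 hypothalamic markers, 8 were counted. They summed to 11.0 and 14.3 CPM in APP against 5.66 and 5.13 CPM in WT. At an FDR under 0.05, 4 of 8 were higher, Avp and Oxt included, where 1.13% of all features were. The part of dissected tissue in these values was not tested. Crh, the releasing hormone made by cortical interneurons as well, differed by 0.063 on the log2 scale (adjusted p 0.966). Its binding protein Crhbp differed by -0.22 (adjusted p 0.497).

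The pathways next to single members held few calls. Of all features, 1.32% passed an FDR under 0.05 and 11.1% had an unadjusted p under 0.05. Of 16 genes of the SGK1 and FOXO axis, 0 passed an FDR under 0.05, with 3 at an unadjusted p under 0.05 and a median of -0.053. The most abundant were the ubiquitin ligase Nedd4, at a log2 fold change of 0.0058, and Ndrg2, at 0.022. Those at an unadjusted p under 0.05 were the Sgk1 substrate Ndrg1, at 0.29, Foxo3, at -0.17, and Scnn1a, at -0.98. Their adjusted p-values (edgeR) were 0.318, 0.326 and 0.295. Of 22 p53 and cell cycle arrest genes, the company of Cdkn1a, 0 passed, with 4 at an unadjusted p under 0.05 and a median of -0.033. The most abundant, the kinase Plk2 and the cyclin Ccng1, were at -0.19 and -0.098.

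Around Ddit4, 1 of 18 mTORC1 and hypoxia genes fell, the angiogenic factor Vegfa, by 0.43 on the log2 scale (adjusted p 0.0323), where 0.192% of all features fell. An unadjusted p under 0.05 was reached by 2 of 18, against 11.1% of all features, and the median was -0.021. The kinase Mtor and the hypoxia factor Hif1a, the most abundant of that list, were at -0.11 and 0.11. Around Errfi1, 1 of 19 ERBB receptors, ligands and inhibitors rose, the feedback inhibitor Lrig1, by 0.82 on the log2 scale (adjusted p 0.000958), where 1.13% of all features rose. An unadjusted p under 0.05 was reached by 7 of 19, against 11.1% of all features. The median was 0.040, with Spred1 and Erbb4, the most abundant, at -0.28 and -0.18. The call of Vegfa was lost without WT-1 (adjusted p 0.280) and without WT-2 (adjusted p 0.0581), while that of Lrig1 held with each library left out.

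Marker lists of cell types moved between the libraries as well. Summed over 12 oligodendrocyte markers, the level was 1808 and 1565 CPM in APP-3 and APP-4 against 1154 and 1297 CPM in WT-1 and WT-2, the same order of libraries as for Sgk1. Of these markers 12 of 12 did not overlap and were higher in APP, with 3 at an FDR under 0.05, where 21.1% and 1.13% of all features were. Their median log2 fold change was 0.52, and that of Sgk1 was 0.24. The part of oligodendrocyte RNA in the level of Sgk1 was not tested.

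Microglial markers summed to 587 and 730 CPM in APP against 346 and 351 CPM in WT. At an FDR under 0.05, 12 of 15 were higher. Astrocyte markers summed to 5003 and 5434 CPM against 4481 and 4112 CPM, with 2 of 12 higher. Of all features, 1.13% were higher at that FDR. Markers of excitatory neurons summed to 1529 and 1544 CPM against 1722 and 1670 CPM, with 0 of 12 passing. Their sum was lower in both APP libraries, as were Nr3c1 and Tsc22d3 and 20.0% of all features. The lowest library was APP-3 for the neuron markers and APP-4 for Nr3c1 and Tsc22d3. The part of neuronal RNA in the levels of these genes was not tested. Immediate-early genes, which neuronal activity and handling induce, summed to 409 and 536 CPM in APP against 662 and 675 CPM in WT. Of these, 3 of 16 were lower at an FDR under 0.05, where 0.192% of all features were.

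Between the APP libraries, 12 striatal markers summed to 420 CPM in APP-3 and 763 CPM in APP-4, with 551 and 610 CPM in WT, and 11 of 12 were past 1.2-fold higher in APP-4. Oligodendrocyte markers were past 1.2-fold higher in APP-3 for 6 of 12. Of the features of at least 1 CPM, 14.1% were past 1.2-fold higher in APP-4 and 10.7% in APP-3. Endothelial markers, from cells that respond strongly to glucocorticoids, summed to 70.1 and 66.1 CPM in APP against 74.5 and 64.8 CPM in WT, and mural cell markers to 123 and 127 CPM against 123 and 114 CPM. Interneuron markers summed to 515 CPM in APP-3 and 620 CPM in APP-4, thalamic markers to 269 and 246 CPM and choroid plexus markers to 12.0 and 13.4 CPM. The part of these differences in tissue makeup in the ratios of Fkbp5, Ddit4, Cdkn1a and Tsc22d3 between APP-3 and APP-4 was not tested.

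**Figure D5:**
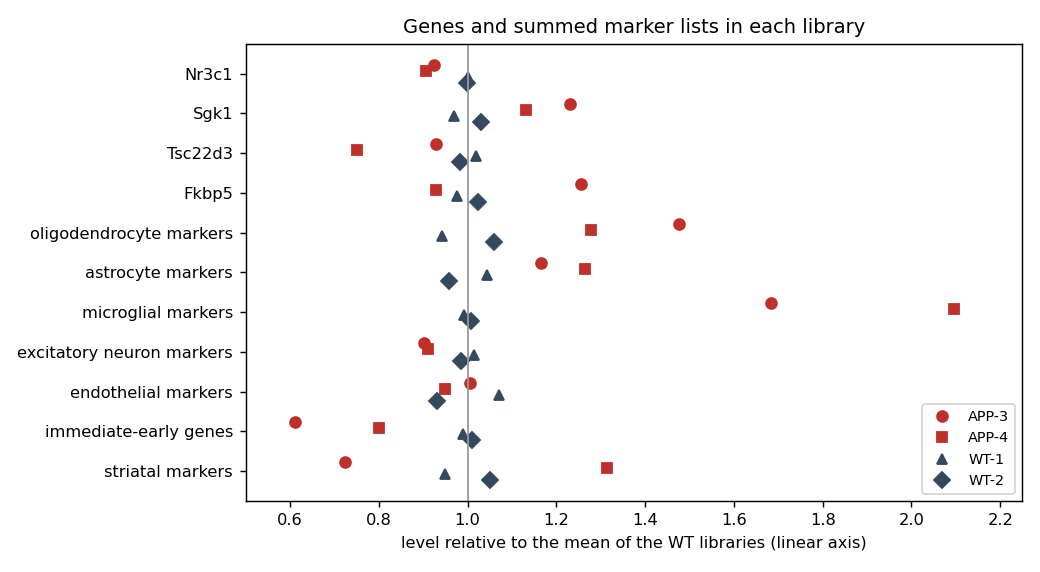
Level of 4 of the genes and of the summed CPM of 7 marker lists in each library, relative to the mean of the WT libraries (horizontal linear axis, 1 is the WT mean), with red for APP and dark blue for WT. Sgk1 and the oligodendrocyte markers share the order APP-3, APP-4, WT-2, WT-1, from 1.23 and 1.48 down to 0.970 and 0.942, and the striatal markers split the APP libraries, at 0.724 and 1.31.

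The features whose log2 CPM followed that of Sgk1, the gene of lowest p among the 8, most closely over the 4 libraries were Lrrcc1, Ogfr and Fam50a, at Euclidean distances of 0.019, 0.020 and 0.024 among 11828 features of at least 5 CPM. With 4 libraries many features share such a pattern, and the adjusted p of these 3 for APP against WT (edgeR) was 0.295, 0.388 and 0.559.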

How the data were processed

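Cortical RNA of 2 APP and 2 WT mice was freed of ribosomal RNA and sequenced by the authors, keeping the strand. The authors aligned reads with FANSe2 to Ensembl mouse transcripts and deposited raw read counts for 37539 transcripts. The submitters' notes also list CASAVA 1.8, edgeR and the build hg19, which is not a mouse build. The deposited log2 fold change, mean log2 CPM, p-value and FDR columns hold the authors' own comparison and were not used. A further 4 columns in all, with CPM values of the libraries, were not used either. No label carries the numbers 3 and 4 of the APP columns, so these were assigned to the group alone, while the numbers of the WT columns match the labels.

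The deposited counts were summed per gene symbol without regard to letter case, and 8274 rows without a symbol were kept as features of their own. Features under 10 counts would have been left out, and 0 were. The groups were compared in R 4.3.3 with edgeR 4.0.16 (glmQLFit and glmQLFTest, TMM, no covariate), and calls needed the study's cut-offs, 1.5-fold and an FDR under 0.05. Intervals of fold changes use an SE and 10.1 degrees of freedom. This SE is the absolute log2 fold change over the square root of the F statistic of the quasi-likelihood test. Intervals of ratios between libraries are exact (Clopper-Pearson, 95%). The fitting steps were checked on simulated counts. Of 17 pairs of a gene and a relative, 0 shared a stretch of 100 bases with 7 or fewer mismatches, the number the aligner allowed. This compared main transcripts without gaps and held no pair for Errfi1. Shorter reads, which the study also kept, were not checked. Summaries used Python 3.11.15, pandas 2.3.3 and scipy 1.17.1, and genes were located with GENCODE M21 (GRCm38).

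The 8 genes, the pathway and marker lists and the tests were chosen with earlier results of these data known. Named genes were all 8, each pathway list gene past an FDR of 0.05, the 2 most abundant genes of pathway lists with fewer than 2 calls, Avp, Crh and Crhbp, and the 3 features most like the member of lowest p. Genes named for the difference between APP-3 and APP-4, and Ndrg1, Foxo3 and Scnn1a, were chosen after their values were seen. The alternatives were edgeR's exact and likelihood ratio tests, DESeq2 1.42.0, library totals without TMM, TMM over protein-coding features, no filter, at least 10 counts in every library, transcripts, sums per GENCODE gene, other fold cut-offs and each library left out in turn. Library totals for the comparison of APP-3 with APP-4 were an alternative chosen after seeing the data.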

Additional observations from a re-analysis of the deposited data

How the results depend on the processing

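Over the 9 settings that kept the 4 libraries, 70 of 72 log2 fold changes of the 8 genes kept their direction and their side of the FDR threshold. The exceptions were near 0, Ddit4 at -7.42e-05 with at least 10 counts in every library and Nr3c2 at 0.032 for its main transcript. With 1 library left out, where the lone sample is assumed to vary like the other group, 24 of 32 did so, 3 passed the FDR threshold and 5 reversed: Nr3c2 (0.015), Fkbp5 (-0.11) and Ddit4 (-0.21) without APP-3, and Cdkn1a (0.075) and Errfi1 (0.017) without WT-2. Over these 4 fits Nr3c2 ranged from -0.025 to 0.015, Fkbp5 from -0.11 to 0.33, Sgk1 from 0.17 to 0.30, Tsc22d3 from -0.42 to -0.11, Ddit4 from -0.21 to 0.19, Cdkn1a from -0.50 to 0.075 and Errfi1 from -0.20 to 0.017. Members past an FDR of 0.05 then numbered 0 to 2 (1 without APP-3, 2 without APP-4), and 0 in each of these fits passed both cut-offs. Without an APP library the spread rests on the close WT pair alone. Features past both cut-offs, 225 in all, were 397 by edgeR's exact test, 443 by its likelihood ratio test, 131 at a fold change of at least 2, and 184 to 730 with 1 library left out. Pathway list genes outside the 8 with an FDR under 0.05, 7 in all, were 4 with at least 10 counts in every library, 4 with sums per GENCODE gene, and 2 to 29 with 1 library left out. Library totals gave 16 in place of 15 listed genes past 1.2-fold higher in APP-3. No paired analysis was made, because neither the labels nor the study's methods describe pairs of mice. Depth limited Cdkn1a most, with between 152 and 286 counts in a library.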
